A study of Mus musculus with 15 samples.

Results

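A resting T-cell keeps a set of receptors and transcription factors that let it travel, survive and stay out of cycle. Ccr7 and S1pr1 encode the receptors that draw T-cells into lymph nodes and let them leave the thymus and lymphoid tissue, and Il7r encodes the alpha chain of the receptor for the survival cytokine IL-7. Tcf7, Lef1, Bach2, Satb1, Foxo1 and Foxp1 encode transcription factors of naive T-cells and of their thymic precursors, and Dgka encodes a kinase that removes diacylglycerol, the lipid that brings the Ras activator RasGRP1 to the membrane. Foxo1 is known to drive Ccr7 and Il7r, and the PI3K and Akt kinases that act downstream of the T-cell receptor (TCR) and of Ras move it out of the nucleus. A strong TCR stimulus is known to lower many of these transcripts, which is why they were followed here in cells with and without N-ras.

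The 10 genes were chosen by name with earlier results of these data known, and each probe set that GEO's platform annotation gives to one of them alone was taken. This gave 27 of the 45101 probe sets on the CD4+ T-cell arrays and 21 of the 22690 on the thymocyte arrays, and all 21 were among the 27. They cover 9 of the 10 genes, among 18194 genes with a probe set of their own on the CD4+ T-cell arrays and 12394 on the thymocyte arrays: Ccr7, S1pr1 and Dgka with 1 probe set each on the CD4+ T-cell arrays, Il7r and Lef1 with 2, Bach2 with 3, Foxo1 with 4, Satb1 with 5 and Foxp1 with 8. Tcf7 was matched to no probe set and is not analysed here.

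Affymetrix arrays were run on RNA from splenic CD4+ T-cells, sorted by flow cytometry, and from thymocytes taken directly from the mouse. The T-cells came from 3 WT and 3 N-ras KO mice or repeats of the experiment, and were kept overnight in growth medium either alone (unstimulated) or with antibodies to CD3 and CD28 at 1 µg/ml each, a low-level TCR stimulus, which gave 4 groups of 3 arrays. Thymocytes of WT mice and of each KO line, N-ras and H-ras, were measured on 1 array each. All mice were 129/SJ and 6 to 20 weeks old by the labels, although the methods put the thymocyte donors at 6 weeks, the KO lines lack N-ras or H-ras in every cell from birth, and the WT mice were littermates bred from heterozygous parents. Values are log2 expression relative to a baseline that the authors subtracted: the median of the 3 unstimulated arrays of the same genotype for T-cells, and the median of the 3 arrays for thymocytes. The median was 0 for all 45101 and all 22690 probe sets, so the values hold no brightness. The presence or absence of marker transcripts could therefore not be checked, and unstimulated WT and unstimulated N-ras KO cells cannot be compared.

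Nras itself went against the label on 2 pairs of arrays. On probe set 1454060_a_at the log2 expression of the unstimulated and stimulated arrays labelled WT 1 was -2.68 and -3.04, while WT 2 had 0.28 and -0.10 and WT 3 had 0.00 on both. The arrays labelled N-ras KO 3 had 2.04 and 2.09, while N-ras KO 1 had 0.00 and 0.51 and N-ras KO 2 had -0.04 and 0.08. On the other 2 probe sets the unstimulated array was at -1.61 and -1.23 for WT 1 and at 1.70 and 1.21 for N-ras KO 3, although the stimulated WT 1 array was at -0.14 on 1422687_at. Thus 1 pair labelled WT had less Nras than the other WT pairs, and 1 pair labelled N-ras KO had more than the other N-ras KO pairs. Results that rest on these pairs are given with and without them. In thymocytes Nras followed the labels, with log2 expression of WT over N-ras KO of 1.81, 2.46 and 2.38 on its 3 probe sets.

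The first question was how each gene responded to the stimulus in each genotype. Each response is the stimulated minus the unstimulated array of the same number and genotype, so that the baseline cancels. Arrays that share a number within a genotype deviated together on all probe sets, and limma was fitted over all 12 arrays with each such pair as a block. A probe set is called when it changed by 1.5-fold (0.585 on the log2 scale) with an unadjusted p under 0.05, the thresholds that the study used. After Benjamini-Hochberg adjustment over all 45101 probe sets no probe set on the array passed 0.05 in any of the 5 T-cell comparisons. An unadjusted p under 0.05 was reached by 1941 in the WT response, 3200 in the N-ras KO response, 2970 in the mean of both, 2067 in the difference of the responses and 3427 between the stimulated groups. With no change at all, a share of 0.05 of the tests reaches this on average. The counts for the WT response and for the difference lay below that share. In these bulk samples, fewer cells of a type and less RNA per cell cannot be told apart.

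Few of the probe sets passed. Called were 1 of 27 probe sets in WT cells (a Satb1 probe set, lower), where 2.8% of all probe sets were called, 1 of 27 in N-ras KO cells (a Foxp1 probe set, lower), where 4.91% were, and 0 of 27 in the mean response of both genotypes, where 2.74% were. The median log2 response was -0.08 in WT, -0.03 in N-ras KO and -0.05 in both together, against 0.00, 0.01 and 0.01 over all probe sets. The sign leaned downward: 22 of 27 mean responses (81.5%) were below 0, against 48.4% of all probe sets. Without the arrays labelled WT 1 and N-ras KO 3, 19 of 27 were below 0 and 0 were called in any of the 3 responses. B-cell markers went up with the stimulus in the same fit: 6 of 7 mean responses were above 0, with a median of 0.445 (0.311 in WT, 0.534 for N-ras KO), 4 had an unadjusted p under 0.05 and 1, Blnk, was called higher, and their part in the values of the 27 probe sets was not tested. The 95% interval of the mean response lay within 1.5-fold in either direction for 24 of 27 probe sets (88.9%, against 55.5% of all), and for 11 of 27 (40.7%, against 36.1%) when the pair block was left out. The exceptions with the block were 1 Satb1 and 1 Foxp1 probe set described below and Satb1 1439449_at.

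**Figure D1:**
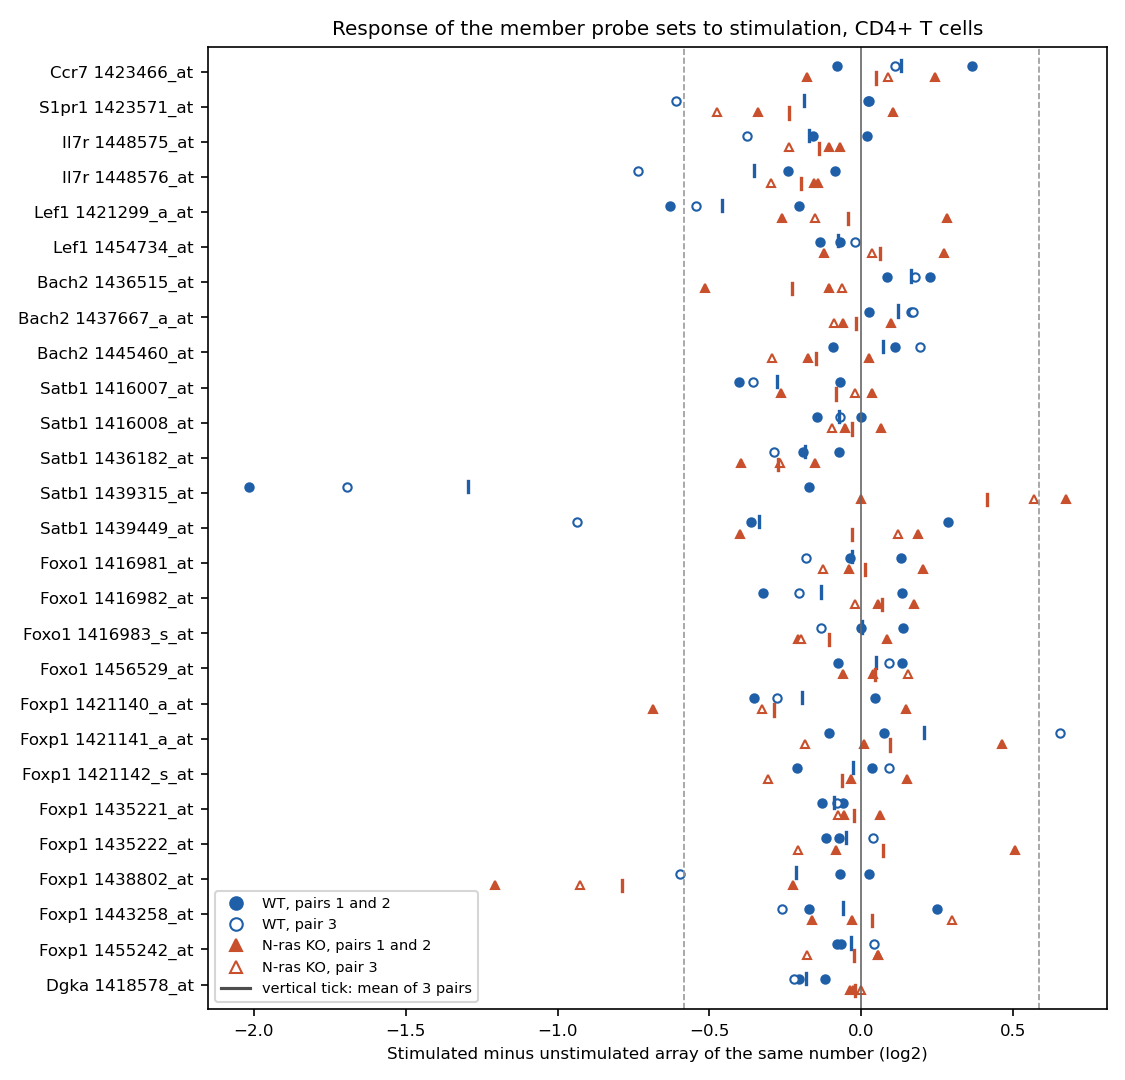
Log2 response of each of the 27 probe sets in CD4+ T-cells, 1 point per pair of arrays (circles WT, triangles N-ras KO, open symbols pair 3), with a vertical tick at the mean of the 3 pairs and dashed lines at 1.5-fold. Most points lie inside the dashed lines, and Satb1 1439315_at in WT and Foxp1 1438802_at in N-ras KO have means of -1.29 and -0.79.

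Of the homing receptors, Ccr7 showed log2 responses of 0.37, -0.08 and 0.11 in the 3 WT pairs and of -0.18, 0.24 and 0.09 in the 3 N-ras KO pairs. The pairs were thus spread around 0 in both genotypes, with a mean response of 0.09 and a 95% interval of -0.18 to 0.36 (limma). S1pr1 had 0.02, 0.02 and -0.61 in WT and -0.34, 0.10 and -0.47 in N-ras KO. Both pairs numbered 3 were low, and the interval of its mean response, -0.55 to 0.125 around -0.21, reached to just short of a 1.5-fold fall.

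Il7r was the receptor with the steadiest direction. On 1448576_at the log2 response was -0.24, -0.09 and -0.74 in the WT pairs and -0.15, -0.14 and -0.30 in the N-ras KO pairs, a mean of -0.28 ± 0.12 (SE) with a 95% interval of -0.56 to 0.01 (limma, adjusted p = 0.761). On 1448575_at 5 of 6 pairs were lower, with a mean of -0.16 ± 0.10 (SE). Il7r 1448576_at was 1 of 3 probe sets that were lower in 6 of 6 pairs, with Satb1 1436182_at and Dgka 1418578_at. This is 11.1% of the 27, against 2.13% of all probe sets, and none of the 27 was higher in 6 of 6 pairs, against 2.42% of all.

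The window before the annotated Il7r start, from RefSeq's GRCm38.p6 table, is shown because Il7r also took part in the thymocyte difference given further on. It lies on the minus strand at chr15:9529942-9530126, beyond the outer end of the annotated gene, and holds none of the motifs searched on both strands, GTAAACA (FOXO), CTTTGAA and CTTTGAT (TCF/LEF) and GGGTGTGG (KLF).
Il7r: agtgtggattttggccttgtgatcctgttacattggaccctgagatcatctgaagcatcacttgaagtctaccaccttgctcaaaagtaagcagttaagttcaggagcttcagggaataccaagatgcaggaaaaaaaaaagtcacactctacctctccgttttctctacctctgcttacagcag
The table has windows for 8 of the 10 genes, 21 in all of up to 250 bases, and none for Ccr7 or S1pr1. A FOXO match was in 0 of the 21 windows and in 3.17% of all 32851, a CTTTGAA match in 1 (4.46%), a CTTTGAT match in 0 (3.21%) and a KLF match in 1, before Tcf7 (3.2%). The motifs do not overlap in their letters except for the first 6 that both TCF/LEF forms share.

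Lef1, which with Tcf7 forms the pair of TCF/LEF factors of T-cells, had 1 probe set that moved in WT cells. On 1421299_a_at the log2 response was -0.63, -0.20 and -0.54 in WT and -0.26, 0.28 and -0.15 in N-ras KO. All WT pairs were lower, with a mean of -0.46 ± 0.17 (SE) and a 95% interval of -0.87 to -0.05 (limma, adjusted p = 1), short of 1.5-fold. It passed 1.5-fold only without WT pair 2, at -0.59. The second Lef1 probe set, 1454734_at, was flat, with a WT mean of -0.08 and an N-ras KO mean of 0.06.

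Bach2, a repressor of effector genes, had responses of opposite sign in the 2 genotypes. On 1436515_at the WT pairs had 0.23, 0.09 and 0.18 and the N-ras KO pairs -0.51, -0.11 and -0.06, so that the genotypes did not overlap. The difference of the responses was 0.39 ± 0.21 (SE), with a 95% interval of -0.11 to 0.89 (limma, adjusted p = 0.961). The other probe sets, 1437667_a_at and 1445460_at, also had a positive WT mean (0.12 and 0.07) and a negative N-ras KO mean (-0.02 and -0.15), but there the pairs overlapped.

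Satb1, an organiser of chromatin in T-cells, gave the largest change among the 27, on 1 of its 5 probe sets. On 1439315_at the unstimulated WT arrays had log2 expression of 0.77, -1.14 and 0.00 and the stimulated ones -1.24, -1.31 and -1.69. WT pairs 1 and 3 were therefore lower by 2.02 and 1.69, while pair 2 was already low without the stimulus and was lower by 0.17. The mean response was -1.29 ± 0.37 (SE), with a 95% interval of -2.19 to -0.40 (limma, adjusted p = 1). The call rested on pairs 1 and 3: the response was -0.93 without the arrays labelled WT 1 and -1.09 without WT 3, and neither was called. In N-ras KO cells the unstimulated arrays had 0.00, -0.69 and 0.33 and the stimulated ones 0.00, -0.01 and 0.90, none lower than its pair. The other 4 Satb1 probe sets had mean responses of -0.34 to -0.07 in WT and -0.27 to -0.03 in N-ras KO. Of these, 1439449_at was -0.34 in WT and was called lower, at -0.65 (limma, adjusted p = 1), without the arrays labelled WT 1. On 1436182_at all 6 pairs were lower, by 0.07 to 0.40, with a mean of -0.23 ± 0.09 (SE) and a 95% interval of -0.45 to -0.01 (limma, adjusted p = 0.752).

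Foxo1 did not pass on any of its 4 probe sets. Their mean responses ran from -0.13 to 0.05 in WT and from -0.11 to 0.07 in N-ras KO, and the widest 95% interval of the mean response was -0.28 to 0.22, on 1416982_at. Foxp1, a forkhead factor that holds naive T-cells in quiescence, was called on 1 of 8 probe sets in N-ras KO cells. On 1438802_at the N-ras KO pairs had log2 responses of -0.23, -1.21 and -0.93 and the WT pairs 0.02, -0.07 and -0.60. The N-ras KO mean was -0.79 ± 0.23 (SE), with a 95% interval of -1.35 to -0.22 (limma, adjusted p = 0.66). It was not called without the pair block, without N-ras KO 2, where it was -0.58, or without the arrays labelled N-ras KO 3, where it was -0.72. The difference from the WT response was 0.57 ± 0.33 (SE), with a 95% interval of -0.23 to 1.37. Without N-ras KO 1 that difference was 0.85 and called (limma, adjusted p = 0.901), and the mean response of both genotypes was -0.64 and called (limma, adjusted p = 0.587). The other 7 Foxp1 probe sets had mean responses of both genotypes between -0.24 and 0.15.

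Among the measured genes Foxp1 alone had a motif match in a promoter window, so that window is shown with the match in capitals. It lies on the minus strand at chr6:99266516-99266765 (RefSeq, GRCm38.p6), before 1 of 3 Foxp1 starts in the table, within the span of the gene, and the capitals are CTTTGAA read on the opposite strand.
Foxp1: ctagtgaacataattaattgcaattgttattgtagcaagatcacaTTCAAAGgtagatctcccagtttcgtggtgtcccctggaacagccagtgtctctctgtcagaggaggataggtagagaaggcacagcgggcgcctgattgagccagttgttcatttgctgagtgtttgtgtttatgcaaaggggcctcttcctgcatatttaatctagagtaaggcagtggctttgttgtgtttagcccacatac

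Dgka, whose product lowers the diacylglycerol that feeds Ras activation, was lower in 6 of 6 pairs by small amounts. The log2 responses were -0.21, -0.12 and -0.22 in WT and -0.04, -0.03 and 0.00 in N-ras KO, where the last value was just below 0. The mean was -0.10 with a 95% interval of -0.31 to 0.10, and the difference between the genotypes, -0.16, had a 95% interval of -0.57 to 0.25.

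T-cell activation genes gave more calls in the same cells by the unadjusted threshold, and none of them passed adjustment. Of 25 T-cell activation genes (1 probe set per gene), 12 were higher and 0 lower in WT, where 2.8% of all probe sets were called. In N-ras KO 7 were higher and 0 lower (4.91% of all). In the mean of both genotypes, whose median was 0.88, 13 were higher and 0 lower (2.74% of all). The difference of the responses, WT minus N-ras KO, called 0 higher and 3 lower (4.12% of all). Without the arrays labelled N-ras KO 3 that difference called 3 higher and 0 lower. Without the arrays labelled WT 1 and N-ras KO 3 the mean response still called 11 of the 25, the WT response 11 and the N-ras KO response 6. The difference then called 4 higher and 1 lower. Irf4, a transcription factor of activated lymphocytes, rose by log2 1.59 in WT and by 2.39 in the N-ras KO pairs, with a mean of 1.99 ± 0.15 (SE, limma, adjusted p = 0.333). Egr1, an immediate early factor of the ERK pathway, rose by 1.00 and 1.08. Cd69, the early activation antigen that binds S1pr1 and keeps cells in the tissue, rose by 1.13 and 1.27. Nr4a1, another early target of the TCR, rose by 2.22 and 3.62. Il2ra, the IL-2 receptor alpha chain, rose by 1.67 in WT and was 0.75 ± 0.40 (SE) in N-ras KO, where it was not called. The activation genes and the homing and quiescence genes were chosen with earlier results of these data known, so their counts are descriptions.

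**Figure D2:**
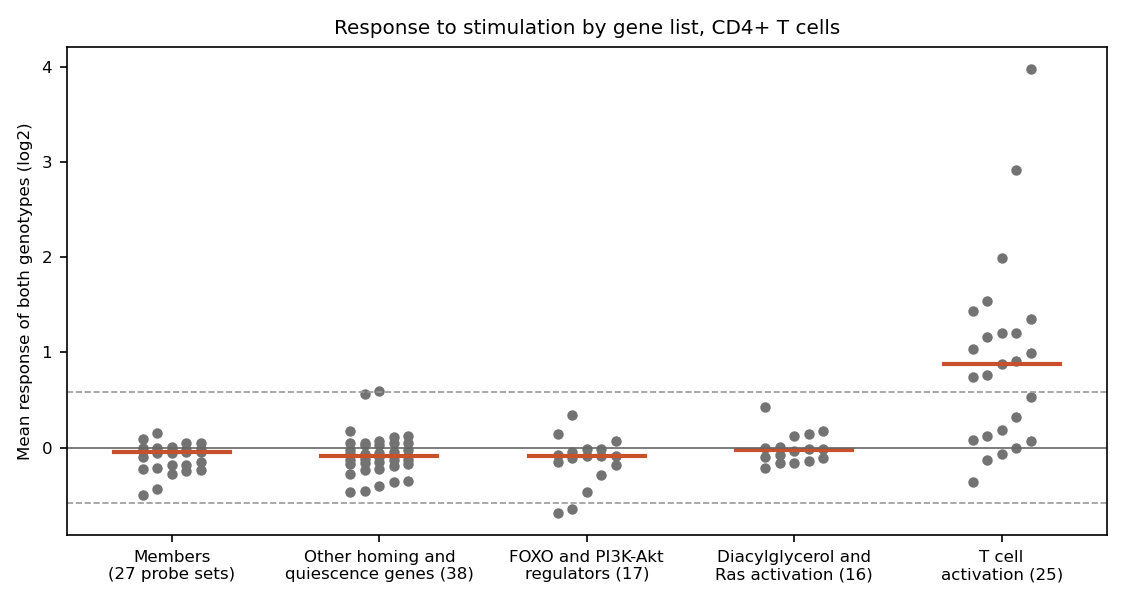
Mean log2 response of both genotypes in CD4+ T-cells for the 27 probe sets and for 4 other gene lists (1 point per probe set, 1 probe set per gene in the lists), with the median as a red line and dashed lines at 1.5-fold. The activation genes have a median of 0.88, and the other groups have medians of -0.09 to -0.02.

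Other genes of resting T-cells also gave few calls, as did the whole array, with 2.8% of all probe sets in WT, 4.91% in N-ras KO and 2.74% in the mean. Of 40 further homing and quiescence genes 38 were measured, and the stimulus called 0 higher and 1 lower in WT (Foxo4, -0.61), 0 higher and 1 lower in N-ras KO (Elf4, -0.64, named after its value was seen) and 0 in the mean of both, with a median of -0.09. The smallest p in the mean response belonged to Btg2, an antiproliferative gene, at -0.36 ± 0.10 (SE), Il6ra, an IL-6 receptor chain, at -0.35 ± 0.12 (SE), Foxo4 at -0.47 ± 0.16 (SE) and Tsc2, an inhibitor of mTORC1, at -0.46 ± 0.16 (SE). Btg2, Il6ra and Foxo4 were lower in 6 of 6 pairs and Tsc2 in 5 of 6, and their adjusted p was 0.729 to 0.741. Klf2, a factor that drives S1pr1, had a mean response of -0.05 ± 0.09 (SE).

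Upstream regulators also gave few calls, where 2.8% (WT), 4.91% (N-ras KO) and 2.74% (mean) of all probe sets were called. Of 17 measured FOXO and PI3K-Akt genes 1 was called lower in WT, Foxo4, which both lists hold, and 0 were called in N-ras KO or in the mean. The next smallest p belonged to Skp2, a ubiquitin ligase subunit, at -0.69 ± 0.32 (SE), Akt2 at 0.34 ± 0.18 (SE) and Rictor, a subunit of mTORC2, at -0.64 ± 0.38 (SE), and Foxo4 was the 1 gene of the 17 with an unadjusted p under 0.05. Of 16 measured genes of diacylglycerol turnover and Ras activation 0 were called in these 3 responses. They include Dgkz, the other main diacylglycerol kinase of T-cells, at -0.16 ± 0.11 (SE), Prkd2, a diacylglycerol-dependent kinase, at -0.16 ± 0.12 (SE), and the Ras exchange factors Rasgrp3 and Rasgrp2, at 0.42 ± 0.33 (SE) and -0.14 ± 0.12 (SE). Rasgrp2 was among 2 of the 16 that were called in the difference of the responses, where 4.12% of all probe sets were called. Its difference was -0.74 (WT minus N-ras KO, limma, adjusted p = 0.961). Dgkh, a diacylglycerol kinase named after its value was seen, was the other, at -0.94.

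Differences between the mice or repeats were larger than the responses. On the log2 scale the range over the means of the 3 pairs had a median of 0.591 (WT) and 0.91 (N-ras KO), against a median size of the response of 0.132 and 0.0696. The range exceeded the response for 25 of 27 probe sets in WT and 26 of 27 in N-ras KO, and for 90.9% and 89.2% of all probe sets. The third pair stood apart in both genotypes and in opposite directions: its deviation from the other pairs had opposite signs in WT and N-ras KO for 25 of 27 probe sets (92.6%), against 77.8% of all. It was 1.5-fold or more from the other pairs for 10 of 27 in WT (37%, against 36.3% of all) and 16 of 27 in N-ras KO (59.3%, against 41.5%).

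Ccr7 shows the pattern. Its log2 expression was -0.16, 0.00 and 0.82 on the unstimulated WT arrays and 0.21, -0.08 and 0.93 on the stimulated ones. On the N-ras KO arrays it was 0.55, 0.00 and -0.55 without and 0.37, 0.24 and -0.46 with the stimulus. The third WT pair was high and the third N-ras KO pair low, with or without the stimulus. Dgka did the same, at 0.91 and 0.69 on the WT 3 arrays and -0.92 and -0.92 on the N-ras KO 3 arrays. Over the 12 arrays Ccr7 and Dgka had a Pearson correlation of 0.928, a description of arrays that share mice, baseline and normalization. Bach2 was reversed, with log2 expression on 1436515_at of -0.88 and -0.71 for WT 3 and 0.61 and 0.55 for N-ras KO 3.

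Probe sets of a single gene also parted along this line. Foxp1 1421140_a_at had 1.17 and 0.89 on the WT 3 arrays and -0.70 and -1.03 on the N-ras KO 3 arrays, and Foxp1 1421141_a_at had -1.50 and -0.85 on the first and 1.80 and 1.62 on the second. Their correlation over the 12 arrays was -0.905, while Foxp1 1421141_a_at and 1421142_s_at had 0.916. Satb1 1439449_at (-0.16 and -1.09 for WT 3, 1.13 and 1.25 for N-ras KO 3) and Satb1 1436182_at (0.76 and 0.47, -0.71 and -0.97) parted likewise, with a correlation of -0.541. A level of Foxp1 or Satb1 in a given mouse therefore depended on the probe set read.

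**Figure D3:**
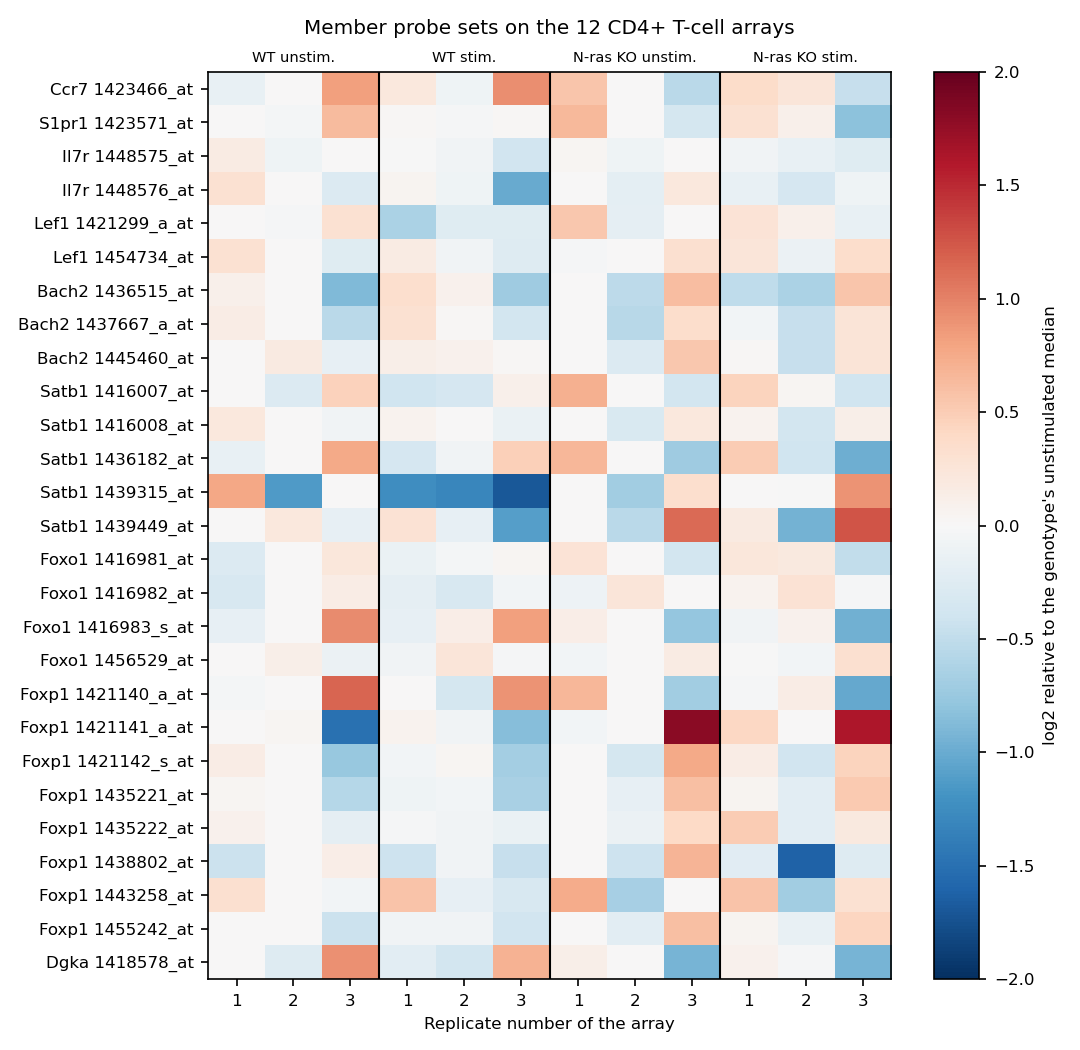
Deposited log2 values of the 27 probe sets (rows) on the 12 CD4+ T-cell arrays (columns, by group and number), relative to the unstimulated median of the same genotype, with red above and blue below it. The arrays numbered 3 carry the strongest colours, in opposite directions in WT and N-ras KO, such as Foxp1 1421141_a_at at -1.50 and 1.80 without the stimulus.

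T-cell and B-cell markers moved with the third pairs too. The median of 7 T-cell genes was 0.613 and 0.47 on the unstimulated and stimulated WT 3 arrays and -0.5 and -0.579 on the N-ras KO 3 arrays. That of Cd4 and Zbtb7b was 0.615 and 0.87 against -0.749 and -0.996. B-cell markers (7 genes) stood at 1.11 on the stimulated WT 3 array and 1.65 on the stimulated N-ras KO 3 array, against 0.0926 to 0.326 on the stimulated N-ras KO 1 and 2 arrays and -0.743 and 0.133 on those of WT 1 and 2. Neutrophil and myeloid markers (8 genes) set other arrays apart, with medians of -2.17 and -1.67 on the unstimulated and stimulated WT 2 arrays and of 1.01 and 0.999 on the stimulated N-ras KO 1 and 2 arrays, while the arrays numbered 3 lay between -0.01 and 0.124. The N-ras KO 3 arrays are also those with Nras above the other N-ras KO arrays. What part these differences have in the values above was not tested.

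**Figure D4:**
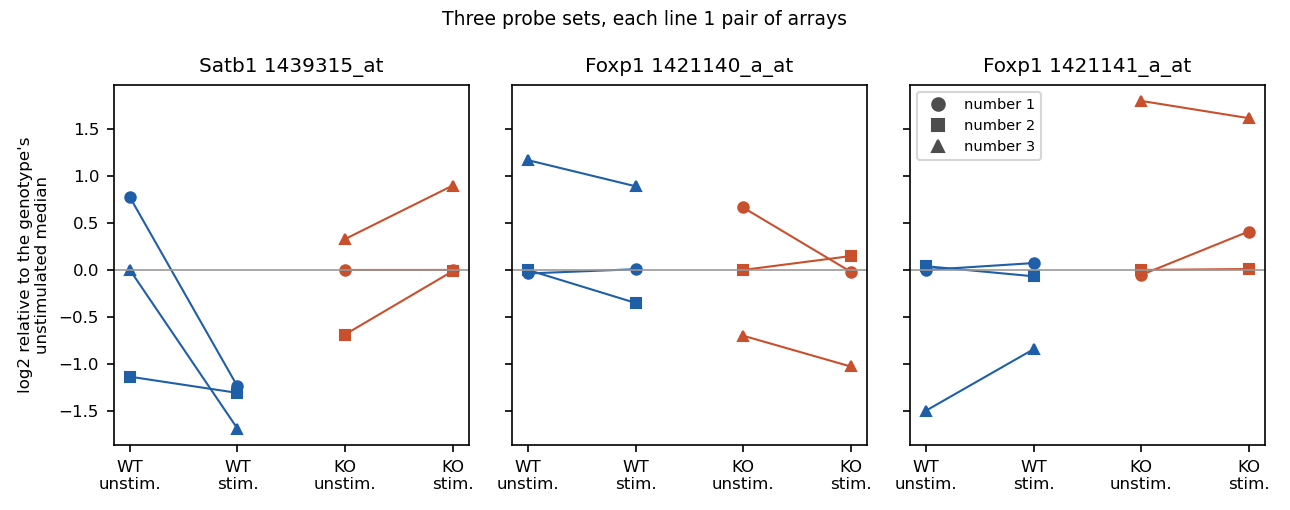
Log2 expression of Satb1 1439315_at, Foxp1 1421140_a_at and Foxp1 1421141_a_at in CD4+ T-cells, relative to the unstimulated median of the same genotype, with each line joining the unstimulated and stimulated array of 1 number (blue WT, red N-ras KO). On Satb1 1439315_at the WT lines end at -1.24 to -1.69, and on the Foxp1 probe sets number 3 (triangles) lies on opposite sides of 0 in WT and N-ras KO.

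The second question was whether N-ras changed these responses. Of the 27 probe sets 1 was called in the difference of the WT and N-ras KO responses, where 4.12% of all probe sets were called, and it was Satb1 1439315_at. The difference was -1.71 ± 0.52 (SE), with a 95% interval of -2.97 to -0.45 (limma, adjusted p = 0.961). It was -1.27 without the arrays labelled WT 1 and N-ras KO 3, -1.43 without both pairs numbered 3 and -1.51 without WT 3, and was called in none of these. The other 26 differences ran from -0.41 to 0.57. The intervals were wide, with 11 of 27 (40.7%, against 9.88% of all) lying within 1.5-fold in either direction. When the pair block was left out, 1 of 27 did (3.7%, against 1.12%). Even with the block, a difference of 1.5-fold was within the error of these arrays for the other 16.

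The study's own comparison set stimulated WT against stimulated N-ras KO cells. In the values as deposited each group is relative to its own unstimulated median, so this contrast is not of levels. It is not the difference of the paired responses either, because differences between the mice or repeats stay in it. Foxp1 1421141_a_at was at -0.96 in this contrast and at 0.11 in the difference of the responses, and Dgka at 0.33 and -0.16. The contrast of the stimulated groups called 1 of 27, where 6.9% of all probe sets were called. On Satb1 1439315_at the stimulated WT arrays had log2 expression of -1.24, -1.31 and -1.69 and the stimulated N-ras KO arrays 0.00, -0.01 and 0.90, a difference of -1.71 ± 0.47 (SE), with a 95% interval of -2.75 to -0.67 (limma, adjusted p = 0.53). It was -1.49 and still called without the arrays labelled WT 1 and N-ras KO 3. Without both pairs numbered 3 it was -1.27 and not called, and Bach2 1436515_at was called in its place, at 0.78 (limma, adjusted p = 0.318). The stimulated groups did not overlap for 3 of 27 probe sets (11.1%), against 13.7% of all. The other 2 were Lef1 1421299_a_at, lower in WT by 0.44 on the log2 scale (limma, adjusted p = 0.69), and Foxo1 1416982_at, lower by 0.30 (limma, adjusted p = 0.717). For Ccr7 the contrast was 0.30 with a 95% interval of -0.58 to 1.18, and for Dgka it was 0.33 with -0.65 to 1.30, so that a value 1.5-fold higher in WT lay within both intervals and a value 1.5-fold lower within that of Dgka.

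The third question was how the genes stood in unstimulated thymocytes, where 1 array per genotype allows folds but no test, SE or p-value. The 3 differences come from 3 arrays, each used in a pair of them, so they are not independent of one another. Relative to the median of the 3 arrays, Foxo1 1456529_at was at 0 on every array, as were 5379 of all 22690 probe sets.

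In WT minus N-ras KO thymocytes, 0 of 21 probe sets were higher by 1.5-fold, where 1.09% of all were, and 1 was lower, where 1.55% were. The 1 was Foxp1 1438802_at, whose log2 expression was -1.61 on the WT array, 0.19 on that of N-ras KO and 0.00 on that of H-ras KO, lower in WT by 3.50-fold against the N-ras KO array and by 3.06-fold against the H-ras KO array. The other 6 Foxp1 probe sets differed by -0.43 to 0.00. In all 17 of 21 probe sets were below 0, 3 above and 1 at 0, with a median of -0.15. Of all 22690 probe sets 32.3% were below and 35.7% above, and the other 7265 were at 0. Bach2 1437667_a_at was lower in WT by 0.57, just short of 1.5-fold, and Il7r by 0.34 and 0.47. Lef1 was higher by 0.35 and Ccr7 by 0.18.

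In WT minus H-ras KO thymocytes, 4 of 21 probe sets were higher, where 1.51% of all were. Bach2 was 2.31-fold higher in WT, Ccr7 2.08-fold, S1pr1 1.78-fold and Lef1 1.74-fold. The 1 that was lower, where 1.47% of all were, was Foxp1 1438802_at. The rest lay between -0.27 and 0.34 on the log2 scale.

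Setting the 2 KO arrays against each other directly gave the most uniform pattern. Of 21 probe sets 20 were higher in N-ras KO, 1 was at 0 and 0 were lower, with a median log2 difference of 0.27. Of all 22690 probe sets 31.7% were above 0 and 35% below, and the other 7571 were at 0. By 1.5-fold 4 were higher, where 1.38% of all were, and 0 lower, where 1.04% were. Bach2 1437667_a_at, at 0.57 in N-ras KO and -1.21 in H-ras KO, differed 3.43-fold. S1pr1 (0.17 and -0.83) differed 2.01-fold, Ccr7 (0.00 and -0.88) 1.84-fold and Il7r 1448575_at (0.34 and -0.27) 1.53-fold, with the second Il7r probe set at 1.44-fold. Lef1 and 3 of the 4 Foxo1 probe sets lay between 1.37-fold and 1.40-fold. Satb1 and Dgka differed by 0.03 to 0.07 on the log2 scale.

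**Figure D5:**
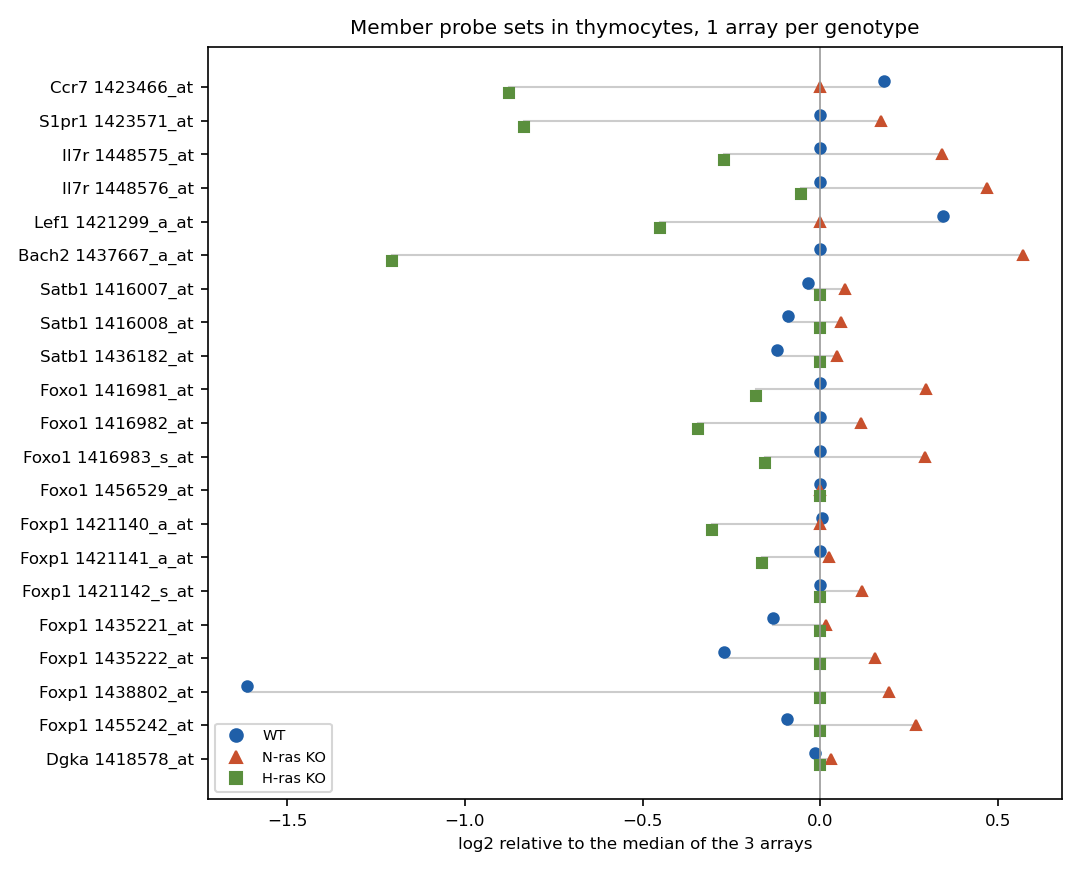
Log2 expression of the 21 probe sets in thymocytes relative to the median of the 3 arrays (circles WT, triangles N-ras KO, squares H-ras KO, 1 array each). The H-ras KO array lies lowest for Bach2 (-1.21), Ccr7 (-0.88) and S1pr1 (-0.83), and the WT array lies lowest for Foxp1 1438802_at (-1.61).

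Other transcripts differed between the same arrays. Of 5 further genes of mature single-positive thymocytes, the cells that carry Ccr7, S1pr1 and Il7r on their way out of the thymus, 5 were higher in N-ras KO than in H-ras KO, 2 of them by 1.5-fold, with a median of 0.472. Of 7 B-cell markers 7 were higher, 5 by 1.5-fold, with a median of 0.671. Over all probe sets 31.7% were above 0 in this comparison and 1.38% were higher by 1.5-fold. The B-cell markers named were H2-Aa (1.18), Ms4a1 (1.08), Blnk (0.72) and Cd79a (0.67). Bach2 is known in B-cells as well as T-cells. In WT minus H-ras KO the 7 B-cell markers had a median of 0.566 and the 5 mature thymocyte genes 0.263, and in WT minus N-ras KO these were -0.202 and -0.238. Of 8 neutrophil and myeloid markers 5 were higher in WT by 1.5-fold against each KO. Of all probe sets 1.09% were so against N-ras KO and 1.51% against H-ras KO. The 8 markers had medians of 1.42 and 1.81. Against N-ras KO 5 were above 0 and 2 below, and against H-ras KO 6 were above and 1 below. Itgam was below 0 in both, at -0.22 and -0.31. Markers of double-positive thymocytes, the main cell of the thymus, had a median of -0.03 in N-ras KO minus H-ras KO (9 genes), with 4 above and 5 below 0 over a range of -0.25 to 0.38. The ends were Rag2 and Ptcra, Ccr9 was at 0.30 and Arpp21 at -0.23, and Rag1 at 0.05, Dntt at -0.08 and Cd8a at -0.03 lay between. Cd4, from the helper T-cell markers, was at -0.02. Of the 7 T-cell genes 6 were higher in N-ras KO than in H-ras KO and 1 lower, 0 by 1.5-fold, with a median of 0.153. In WT minus N-ras KO all 7 were below 0, with a median of -0.137. In WT minus H-ras KO 5 were above 0 and 2 below, with a median of 0.0278. The part of these cell types in the differences of the homing genes was not tested.

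Of 36 other homing and quiescence genes measured in thymocytes, 27 were higher in N-ras KO than in H-ras KO and 6 lower, 2 and 0 of them by 1.5-fold. Of all probe sets 31.7% were above 0 and 35% below, and 1.38% and 1.04% passed 1.5-fold. Itgb7 and Klf2 are also among the mature thymocyte genes above. The largest were the integrin chains Itga4 (0.77) and Itgb7 (0.69), the RNA-binding factor gene Zfp36l2 (-0.56) and Id2 (0.52). Klf2 was highest in WT, by 0.77 over N-ras KO and 1.25 over H-ras KO, and 0.47 higher in N-ras KO than in H-ras KO. In WT minus N-ras KO the largest besides Klf2 were Zfp36l2 (0.73), Tob1 (0.70) and Itga4 (-0.58), and in WT minus H-ras KO they were Tob1 (0.69), Ccr9 (0.63) and Itga6 (-0.60). Among 16 FOXO and PI3K-Akt genes Sgk1, a kinase that phosphorylates FOXO factors, was 0.87 higher in WT against the N-ras KO array and 0.80 higher against the H-ras KO array, and no other passed 1.5-fold. Among 13 diacylglycerol and Ras genes only Nras and, in N-ras KO minus H-ras KO, Dgke (-0.63) passed it.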

How the data were processed

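The authors deposited log2 expression values from Affymetrix arrays, which the methods trace to GeneSpring's RMA with quantile scaling, after which each value was expressed relative to a median of controls. RMA has no version in the submitters' notes. By the methods cRNA was amplified first if its yield was low, and they do not say whether any sample was. Gene names came from GEO's annotation of each platform, with symbols updated through RefSeq. On the CD4+ T-cell arrays 34958 probe sets had 1 gene, 932 several and 9211 none, and on the thymocyte arrays 20393, 691 and 1606.

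limma 3.58.1 was run under R 4.3.3, with lmFit, then eBayes and two-sided tests, and with 1 block per genotype and replicate number. The numbers were taken to pair stimulated and unstimulated arrays because their deviations from the group means correlated in every pair (0.458, 0.447 and 0.738 in WT, 0.361, 0.394 and 0.626 in N-ras KO). The methods say both that sorted cells were split between conditions and that each condition used its own mouse, so p-values measure the spread between these arrays. The contrast of stimulated groups had no block. The fit was tested on simulated data. Thymocytes were compared by fold only. The number of arrays limits the precision.

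Lists were reduced to 1 probe set per gene, by type of probe set and then ID. All members are named, with up to 4 genes per list by smallest p in the mean response or largest thymocyte difference, and a few fixed genes. The members and lists were chosen with earlier results of these data known. Alternatives were fits with no or a random block, by number, or with only the groups compared, quantile normalization, centring, array weights, the methods' t-test, fewer probe sets, 2-fold, and leaving out arrays. Leaving out both pairs numbered 3 was chosen after seeing the data.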

Additional observations from a re-analysis of the deposited data

Results flagged for a closer look

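Satb1 1439315_at and Bach2 1436515_at responded in opposite directions in the 2 genotypes: every WT pair of arrays moved one way and every N-ras KO pair the other. This held for 2 of the 27 probe sets (7.41%), against 2.97% of all 45101. For Satb1 1439315_at the WT response minus the N-ras KO response was -1.709 on the log2 scale (limma, adjusted p = 0.961), and 1 N-ras KO pair was at 0.00, a rise of less than 0.01. For Bach2 1436515_at the difference was 0.3914 (limma, adjusted p = 0.961). Groups of 3 arrays were not tested for single outlying arrays.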

How the results depend on the processing

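Counts of called probe sets among the 27 were small, so single probe sets moved them. With no replicate block the response calls were 1 in WT, 0 in N-ras KO, 0 in the mean and 1 in the difference, while all called probe sets on the array fell from 1262 to 469, 2213 to 1057, 1234 to 634 and 1859 to 583. A block by number over both genotypes kept 1 call between the stimulated groups. The labels do not say what same-numbered WT and N-ras KO arrays share beyond the number (correlations of -0.621 to -0.117). The methods' t-test called 0 in WT and 0 in N-ras KO. With 1 probe set per gene, which leaves out both called probe sets, 0 were called in each of the 5 T-cell comparisons. At 2-fold 0 were called in N-ras KO. Leaving out each pair in turn gave 0 to 2 calls in WT, 0 to 1 in N-ras KO, 0 to 1 in the mean, 0 to 2 in the difference and 1 each time between the stimulated groups. Without the arrays labelled WT 1 and N-ras KO 3, and likewise without both pairs numbered 3, 0 were called in WT, 0 in N-ras KO and 0 in the difference. In thymocytes WT minus N-ras KO went from 1 to 2 after quantile normalization, with Bach2 at -0.71, and to 0 with 1 probe set per gene. WT minus H-ras KO went from 5 to 3 at 2-fold and to 3 without probe sets of the _s_at, _x_at and _a_at types, and N-ras KO minus H-ras KO went from 4 to 2 at 2-fold. No called value changed sign under any alternative run. Of 936 member values under alternatives 20 changed their call or moved by more than the spread between pairs. The cause of these changes was not tested. The share is no measure of stability, because many of the estimates could not move. Satb1 1439315_at stayed at -1.29 in WT with no block, a random block, only the compared groups and the methods' t-test. Leaving out a WT pair cannot change an N-ras KO estimate, or the reverse. In these cases only the p-value, and with it the call, could change. Of the summary counts under alternatives 27 moved and 76 stayed the same. Fits with only the compared arrays are the same fit for the mean and the difference and were not repeated.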
